A study of Mus musculus with 2 samples.

Results

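The 10 genes described here are core members of the Notch pathway, chosen by name among the 55416 genes of a raw count table: the 4 receptors Notch1, Notch2, Notch3 and Notch4, the 4 ligands Dll1, Dll4, Jag1 and Jag2, and the 2 target genes Hes1 and Hey1. The samples were 2 mouse rhabdoid tumors (RT), aggressive cancers that typically lack SMARCB1, a subunit of the chromatin remodeler SWI/SNF, and were profiled by poly(A) RNA-seq. The intracranial sample came from the trigeminal nerve and the extracranial sample from the maxillary region of the face, and the labels place both in the MYC subgroup. Both mice were Dppa3-cre::Smarcb1 animals, heterozygous (Fl/+) for the floxed Smarcb1 allele by the study's methods, on a C57BL/6 background. In this model Cre recombinase is knocked into Dppa3, a marker of primordial germ cells, the embryonic precursors of sperm and egg that the study meant to target. The labels give no age for these mice, and normal tissue or untargeted mice were not analysed here. Each location was represented by 1 library, so every comparison below is between 2 libraries and carries counting error only, with no replicate check.

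Notch signaling passes between touching cells. A Delta-like or Jagged ligand on one cell pulls on a Notch receptor on its neighbor, ADAM proteases and then the gamma-secretase complex cut the receptor, and the freed intracellular domain joins the DNA-binding protein RBPJ and Mastermind coactivators to switch on repressors of the Hes and Hey families. In blood vessels, Notch4 and Dll4 are known from endothelial cells and Notch3 from the mural cells that wrap them, whereas Notch1, Jag1 and Jag2 are also used in stratified epithelia.

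The intracranial library held 34545846 counts and the extracranial library 26915696. Levels are given as CPM, read counts divided by a library size that was adjusted between the libraries (TMM), each with the exact (Clopper-Pearson) 95% interval of its share, and a count of 3 corresponded to 0.0863 and 0.112 CPM. Smarcb1, the targeted gene, was measured at 10.5 and 19.8 CPM and Myc at 50.1 and 44.1 CPM in the intracranial and extracranial libraries. Of a list of 8 rhabdoid tumor genes, which holds Smarcb1 and Myc, 1 differed beyond 4-fold (7.19% of all genes). This gene, Rarres1, which the study lists as expressed in all of its MYC tumor groups, had 983 and 31 counts. For all 8 the 95% interval of the ratio excluded an equal level (61.4% of all genes), with 4 higher in each library. Named after their values were seen, Bmp4 stood at 17.99 and 38.45 CPM and Postn at 1426 and 771.9 CPM. In the study's single-cell data Bmp4 marked intracranial and Postn extracranial MYC tumor cells, the opposite side for each. The pieces differed in other tissue: 10 genes of stratified epithelium summed to 22340 CPM in the intracranial library and 3.18 CPM in the extracranial one, where Krt5, Krt6a, Krt15, Trp63 and Dsg3 had 0 counts, and 7 macrophage genes summed to 2233 and 6474 CPM. The location of each library was taken from its label, and whether these values match the labelled sites was not tested.

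Upstream sequences of RefSeq (GRCm38.p6) were matched by symbol for 8 of the 10 members, with no entry for Hes1 and Hey1. They are shown for the receptor with the lowest ratio, for the ligand that was higher in the extracranial library, and for Hes5, a classical RBPJ-driven target that was not detected in either tumor. Each is the run of 250 bases before the transcription start, 5′ to 3′ on the strand of the gene, and capitals mark the RBPJ motif GTGGGAA or its reverse complement TTCCCAC.
Notch3 (chr17:32166891-32167140, minus strand): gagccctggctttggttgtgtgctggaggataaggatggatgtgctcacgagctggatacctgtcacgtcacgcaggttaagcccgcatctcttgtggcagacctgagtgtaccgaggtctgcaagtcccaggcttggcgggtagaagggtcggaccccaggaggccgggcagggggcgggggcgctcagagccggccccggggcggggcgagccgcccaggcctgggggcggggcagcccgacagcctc
Dll4 (chr2:119325534-119325783, plus strand): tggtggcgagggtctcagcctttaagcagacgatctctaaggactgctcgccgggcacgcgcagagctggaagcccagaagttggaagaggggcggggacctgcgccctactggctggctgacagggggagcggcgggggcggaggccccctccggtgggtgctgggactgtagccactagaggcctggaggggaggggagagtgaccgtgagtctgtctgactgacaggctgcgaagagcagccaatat
Hes5 (chr4:154960673-154960922, plus strand): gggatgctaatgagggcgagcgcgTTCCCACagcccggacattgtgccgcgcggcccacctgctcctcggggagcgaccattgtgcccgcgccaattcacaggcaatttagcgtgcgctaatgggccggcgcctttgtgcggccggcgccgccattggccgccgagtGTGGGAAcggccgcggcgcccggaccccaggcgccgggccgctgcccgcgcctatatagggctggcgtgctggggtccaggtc
The Hes5 sequence held the motif on each strand, beginning 226 and 83 bases before the start. Of 54 upstream sequences of other pathway genes, 7 held it, Hes5 included, and 14 held its shorter core TGGGAA. Of the 9 upstream sequences of members (Dll1 has 2), all of receptors or ligands, 0 held the motif or the core. Over all 32851 sequences of this length in the table, on both strands, 5.42% held GTGGGAA and 21.6% held TGGGAA, which is contained in it. The N-box CACNAG, a motif bound by Hes proteins, was found in 4 of the 9 and in 36.7% of all. These are matches of letters only.

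All 10 members were detected in both tumors. Because longer transcripts give more reads, genes were compared with each other as CPM per kilobase of exon. On this scale the members lay between percentiles 24.95 and 80.97 of 16518 protein-coding genes in the intracranial library and between 24.43 and 80.23 in the extracranial library. In the intracranial library Hes1 was the highest member at 12.9 CPM per kilobase, followed by Notch2 at 10.9, Notch3 at 7.08 and Jag1 at 5.98, each above the next beyond counting error. Jag2 stood at 2.26, above Hey1, Notch4, Dll4 and Notch1, which at 1.26, 1.26, 1.16 and 1.05 were each within counting error of the next of these 4, and Notch1 was above Dll1 beyond counting error. In the extracranial library Notch2 led at 12.3 CPM per kilobase, followed by Hes1 at 7.56, Dll4 at 3.65 and Notch4 at 2.17. Notch3 at 1.59 and Jag1 at 1.49 were within counting error of each other there, as were Notch1 at 1.26 and Hey1 at 1.16. Dll1 was the lowest member in both, at 0.696 and 0.372 CPM per kilobase. These comparisons hold the exon lengths fixed, and the order of all 10 was not recomputed with other lengths.

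**Figure D1:**
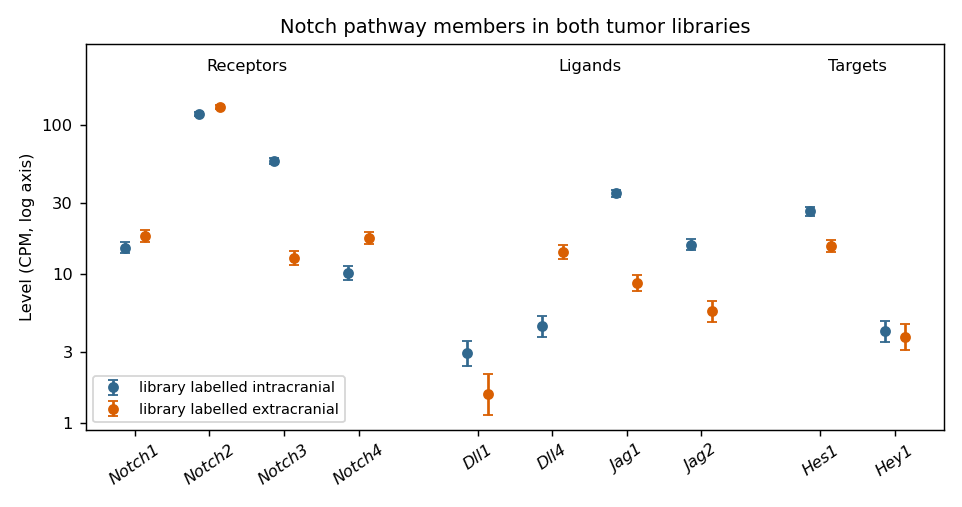
Level of each Notch pathway member in CPM (log axis) in the intracranial (blue) and extracranial (orange) libraries, with exact 95% counting intervals as bars. Notch2 is the highest member in both on this scale, Notch3, Jag1 and Jag2 are clearly higher in the intracranial library, and Dll4 is higher in the extracranial library.

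The next comparison asked how far the members differed between the tumors. Ratios, extracranial over intracranial, were given the exact conditional binomial 95% interval of the counts. The interval excluded an equal ratio for 9 of 10 members, against 61.4% of all 21977 genes with at least 10 counts and 71.7% of the 15582 genes with at least 100, a depth that every member reached. Of the 9, 4 were higher in the extracranial library (29.2% of all genes) and 5 in the intracranial library (32.2%). With the whole interval beyond 2-fold, 4 of 10 members were called, against 15.6% of all genes and 15.8% of those with at least 100 counts. Of these, Notch3, Jag1 and Jag2 were higher in the intracranial library (9.77% of all genes) and Dll4 was higher in the extracranial library (5.86%). Beyond 4-fold, 0 of 10 members were called, against 7.19% of all genes and 7.41% of those with at least 100 counts, although Notch3 came close. The median log2 ratio of the members was -0.45, with a range of -2.15 to 1.66, against a median of -0.04 over all genes. Levels in bulk pieces do not separate fewer cells of a type from less RNA per cell, for these or any genes below.

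The receptor ratios ranged from -2.15 to 0.78 on the log2 scale, while their sum differed little. Together they had 6962 counts (200.4 CPM) in the intracranial library and 4837 (180.8 CPM) in the extracranial library, a log2 ratio of -0.15 (95% interval -0.20 to -0.10). Notch2 (ENSMUSG00000027878), a broadly expressed receptor, had 4099 and 3546 counts, or 118.0 CPM (114.4 to 121.6) and 132.5 CPM (128.2 to 136.9). Its log2 ratio of 0.17 (0.10 to 0.23) was small though outside counting error. Notch1 (ENSMUSG00000026923), a receptor needed in early vessels, T cells and skin, had 521 and 479 counts, or 14.99 CPM (13.7 to 16.3) and 17.9 CPM (16.3 to 19.6), a log2 ratio of 0.26 (0.07 to 0.44). These receptors thus sat at nearly the same level in both tumors.

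Notch3 (ENSMUSG00000038146), the receptor best known from arterial smooth muscle and pericytes, had 1989 and 345 counts. Its level was 57.2 CPM (54.8 to 59.8) in the intracranial library and 12.9 CPM (11.6 to 14.3) in the extracranial library, so that it was 4.44-fold higher in the former (3.96 to 4.99; log2 ratio -2.15). Notch4 (ENSMUSG00000015468), largely an endothelial receptor, went the other way with 353 and 467 counts, 10.2 CPM (9.13 to 11.3) and 17.45 CPM (15.9 to 19.1). It was 1.72-fold higher in the extracranial library (1.49 to 1.98), short of the 2-fold limit. Exons of a gene on the opposite strand cover 6.03% of the Notch3 exon bases and 7.504% of those of Notch1. These antisense genes had 64 and 55 counts beside Notch3 and 14 and 6 beside Notch1. Another antisense gene, with 0 and 1 counts, covers 2.91% of the Notch1 exon bases, and a gene on the same strand, with 26 and 16 counts, covers 5.02% of those of Notch2, an overlap that strand cannot resolve. For the antisense genes, whether the counting used the strand is not given in the sources used here.

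Within each library, the receptors were set against their own sum of counts per kilobase, which needs no scaling between libraries. Notch2 made up 53.8% (52.6 to 55.0) in the intracranial library and 71.0% (69.7 to 72.3) in the extracranial library. The share of Notch3 was 34.8% (33.6 to 36.0) in the former and 9.21% (8.31 to 10.2) in the latter. Notch4 took 6.20% (5.59 to 6.85) and 12.5% (11.5 to 13.6), and Notch1 took 5.18% (4.75 to 5.64) and 7.27% (6.64 to 7.93). In these intervals the split among the other receptors was held fixed. Notch3 was thus the second receptor in the intracranial library and the third in the extracranial one, behind Notch4, and with raw counts or the longest transcript in place of the exon length it was the lowest receptor in the extracranial library.

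The ligand ratios ranged from -2.00 to 1.66. As a family they had 2014 and 802 counts, or 57.96 and 29.97 CPM, a log2 ratio of -0.95 (-1.07 to -0.83). Jag1 (ENSMUSG00000027276), a Jagged ligand of vessels, epithelia and many developing organs, had 1211 counts in the intracranial library and 233 in the extracranial library. These correspond to 34.9 CPM (32.9 to 36.9) and 8.71 CPM (7.63 to 9.90), a 4.003-fold higher level in the intracranial library (3.48 to 4.63; log2 ratio -2.00). Jag2 (ENSMUSG00000002799), the other Jagged ligand, had 546 and 151 counts, 15.7 CPM (14.4 to 17.1) and 5.64 CPM (4.78 to 6.62), and was 2.79-fold higher in the intracranial library (2.32 to 3.36). Both Jagged ligands were therefore on the same side.

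Of the Delta-like ligands, Dll4 and Dll1 were on opposite sides. Dll4 (ENSMUSG00000027314), the ligand of sprouting and arterial endothelium, had 155 and 376 counts, 4.46 CPM (3.79 to 5.22) and 14.05 CPM (12.7 to 15.6). It was 3.15-fold higher in the extracranial library (2.61 to 3.82; log2 ratio 1.66). Dll1 (ENSMUSG00000014773), a ligand of neural, somite and lymphoid development, had 102 and 42 counts, 2.94 CPM (2.39 to 3.56) and 1.57 CPM (1.13 to 2.12). The ratio of Dll1 was 1.87-fold in favor of the intracranial library, with a wide interval of 1.29 to 2.75. Exons of an antisense noncoding gene, whose ID was not among the genes counted, cover 20.55% of the Dll1 exon bases. Those of another, with 5 and 17 counts, cover 5.56% of the Dll4 exon bases.

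In terms of composition, the leading ligand was not the same in the 2 tumors. Jag1 made up 59.3% (57.1 to 61.4) of the summed ligand counts per kilobase in the intracranial library and 23.6% (20.9 to 26.5) in the extracranial library. For Dll4 the shares were 11.5% (9.86 to 13.2) and 57.7% (54.2 to 61.1). Jag2 took 22.4% (20.7 to 24.1) and 12.8% (10.9 to 14.9), and Dll1 took 6.89% (5.67 to 8.29) and 5.88% (4.28 to 7.86), the latter within counting error of each other. Per kilobase, Jag1 was 5.17 times Dll4 in the intracranial library (4.37 to 6.14) and 0.410 times Dll4 in the extracranial library (0.346 to 0.484). This balance, chosen for its contrast after the values were seen, differed 12.6-fold between the libraries (9.91 to 16.04).

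**Figure D2:**
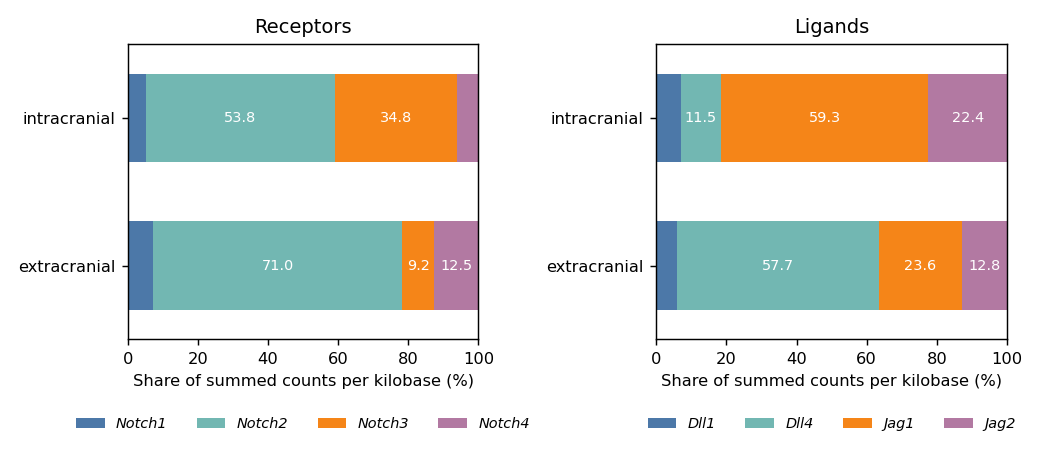
Share (%) of each receptor (left) and ligand (right) in the summed counts per kilobase of its family, with 1 bar per library. Notch3 narrows from 34.8% in the intracranial bar to 9.21% in the extracranial bar, and Dll4 widens from 11.5% to 57.7% where Jag1 narrows from 59.3% to 23.6%.

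Hes1 and Hey1 encode basic helix-loop-helix repressors that are direct outputs of the pathway, although Hes1 is also driven by other signals. Hes1 (ENSMUSG00000022528) had 916 and 412 counts, 26.4 CPM (24.7 to 28.1) and 15.4 CPM (13.9 to 17.0), and was 1.71-fold higher in the intracranial library (1.52 to 1.93). Hey1 (ENSMUSG00000040289) had 143 and 101 counts, 4.12 CPM (3.47 to 4.85) and 3.77 CPM (3.07 to 4.59). Its log2 ratio was -0.12, with an interval of -0.51 to 0.25 that leaves room for up to a 1.42-fold higher intracranial level. The ratio of Hes1 therefore lay outside counting error, and a difference in Hey1 was not detectable at this depth.

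Around the members, 50 other pathway genes were described by role, of which 49 reached 10 counts. Their median log2 ratio was 0.03, with 25 above 0 and 24 below. The interval lay beyond 2-fold for 6 of the 49 (12.2%, against 15.6% of all genes), 3 in each direction, and beyond 4-fold for 2 (4.08%, against 7.19%), 1 higher in the extracranial library (1.78% of all genes) and 1 in the intracranial library (5.41%). Hes5, with 0 counts in both libraries (at 3 counts, up to 0.0863 and 0.112 CPM), was left without a ratio. On the side of ligands, Dlk1, an imprinted Notch-like protein that lacks the Delta domain of canonical ligands, was by far the highest pathway gene, with 80643 and 33758 counts or 410.3 and 223 CPM per kilobase. Its log2 ratio was -0.88 (-0.90 to -0.86). Its relative Dlk2 had 84 counts in the intracranial library and 1 in the extracranial library, 64.7-fold higher in the former from the counts as they stand, with a counting interval of 11.3 to 2585, and 21.6-fold with the 1 count set to the floor of 3.

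Genes that equip the sending and receiving cell were also compared. Of 5 glycosyltransferases that modify the receptor, Lfng was the highest at 13.1 and 24.8 CPM per kilobase (log2 ratio 0.92, 0.81 to 1.03). Mfng, another Fringe enzyme, had 290 and 529 counts and was called, with a log2 ratio of 1.24 (1.03 to 1.46). Of 4 ubiquitin ligases for ligand endocytosis, Mib2 was the highest at 8.78 and 8.39 CPM per kilobase. Neurl1a, a Neuralized ligase, had 165 and 617 counts and the highest ratio of the whole list (2.28, 2.03 to 2.54), beyond 4-fold. None of 10 receptor cleavage genes was called at 2-fold, against 15.6% of all genes. The subunit Psenen of gamma-secretase was the highest at 55.7 and 57.1 CPM per kilobase, with a log2 ratio of 0.04 (-0.05 to 0.12). The log2 ratios of these 10 genes ranged from -0.44 to 0.95. Of them 8 lay outside counting error, against 61.4% of all genes and 71.7% of those with at least 100 counts, a depth that all 10 reached. Of the 8, 7 were higher in the extracranial library (29.2% of all genes).

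In the nucleus, the 12 genes of the transcription complex and its corepressors had a median log2 ratio of -0.01. Of them 9 (75.0%) lay outside counting error, against 61.4% of all genes. Among genes with at least 100 counts, a depth that all but Rbpjl reached, the share was 71.7%, close to that of the list. Of the 9, 5 were higher in the extracranial library (29.2% of all genes) and 4 in the intracranial library (32.2%). Hdac1, a histone deacetylase, was the highest at 27.4 and 26.3 CPM per kilobase. The DNA-binding protein Rbpj, named after its values were seen, had 8258 and 7259 counts (log2 ratio 0.19, 0.14 to 0.24). The 1 call was Rbpjl, a relative of Rbpj, with 19 and 0 counts, a 4.88-fold ratio with the 0 set to a floor of 3 counts per library and at least 3.59-fold higher in the intracranial library by its counting interval, so that it was not called at 4-fold. Among 10 inhibitors and turnover factors, Dtx3 of the Deltex family was the highest at 44.2 and 27.7 CPM per kilobase. Numbl, a Numb-like adaptor that restrains Notch, was called higher in the intracranial library (2139 and 747 counts; log2 ratio -1.14, -1.26 to -1.02), a call that upper quartile scaling ended. Bend6, a nuclear antagonist of Notch-dependent transcription, was called higher in the extracranial library (236 and 519 counts; 1.51, 1.29 to 1.74).

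Of the 5 other genes listed as targets that had a ratio, 0 were called at 2-fold, against 15.6% of all genes. Hes6, a Hes family member that opposes Hes1, was the highest of this list at 9.74 and 13.6 CPM per kilobase. Whether it responds to Notch in these tumors was not tested. Heyl and Nrarp, both named after their values were seen, went in opposite directions. Heyl had 60 and 110 counts (log2 ratio 1.25, 0.79 to 1.73), whereas the feedback inhibitor Nrarp had 126 and 45 counts (-1.11, -1.63 to -0.61). Output genes were therefore not all on 1 side.

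**Figure D3:**
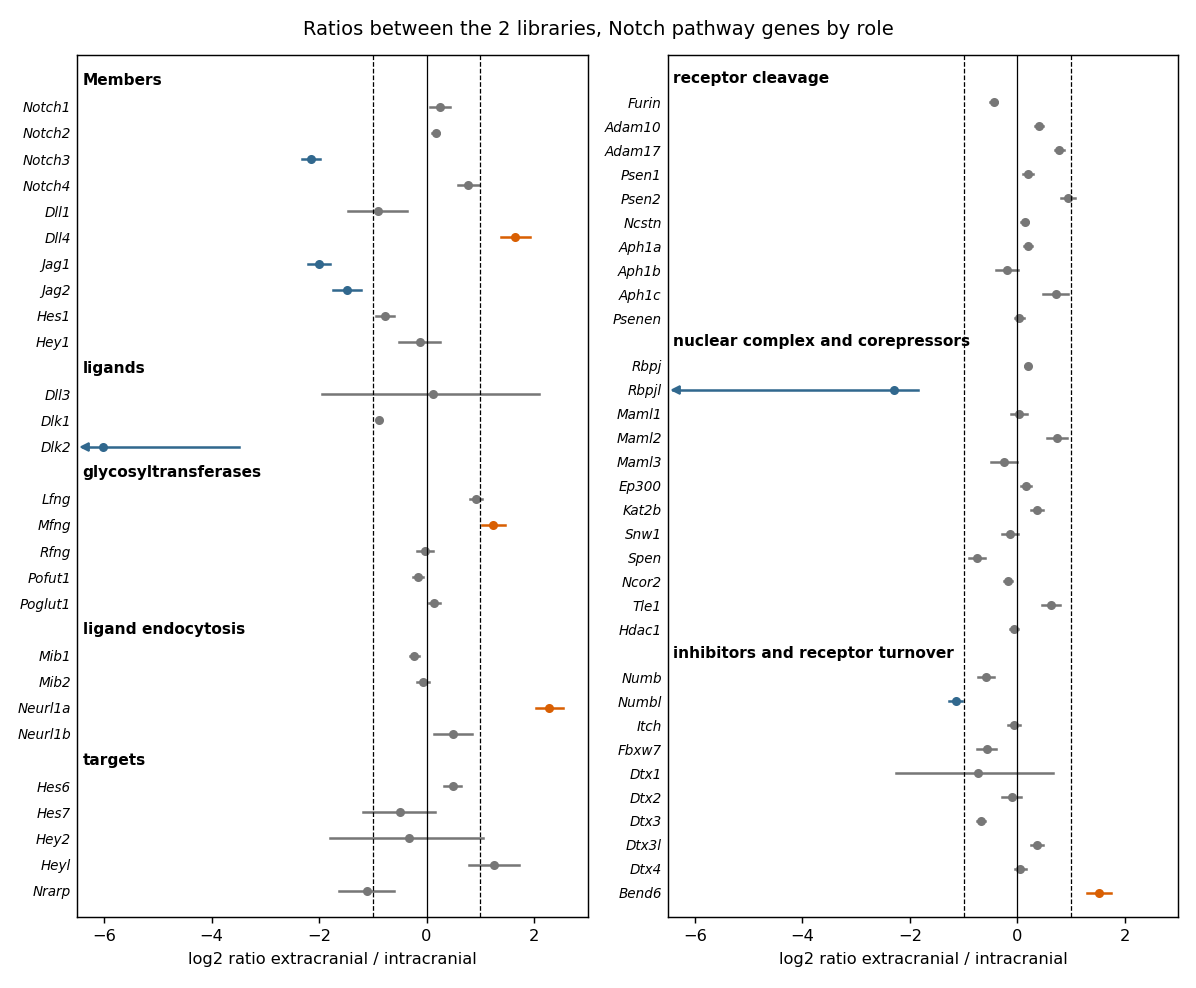
Log2 ratio extracranial over intracranial with its exact 95% interval for the 10 members and the 49 other pathway genes with at least 10 counts, by role. Blue and orange mark intervals wholly beyond 2-fold (dashed lines) toward the intracranial and extracranial library, arrowheads mark intervals that run off the axis, and Rbpjl, with 0 extracranial counts, is drawn with these set to 3. Notch3, Jag1 and Jag2 lie to the left of the dashed lines and Dll4 to the right, while the points of the cleavage genes and of the nuclear genes other than Rbpjl lie between them.

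Because several members are known from vessels or epithelia, marker lists of these cells were set beside them. All 10 endothelial genes were higher in the extracranial library beyond counting error, against 29.2% of all genes. Their log2 ratios were 0.51 to 1.80 (median 1.19), with summed levels of 133.2 and 309 CPM. Pecam1, an endothelial junction protein, had 1274 and 1818 counts (log2 ratio 0.89), Cdh5, the endothelial cadherin, 750 and 1600 (1.47), and Kdr, a VEGF receptor, 285 and 766 (1.80). The ratios of Notch4 (0.78) and Dll4 (1.66) lay within this range, and the part of endothelial content in them was not tested.

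The mural cell list was split. Its 7 genes summed to 378.1 and 531.7 CPM and ranged from -2.08 to 2.58 on the log2 scale. Rgs5, a pericyte gene, had 969 and 2875 counts (log2 ratio 1.95), Cspg4 2067 and 2676 (0.75), and the receptor Pdgfrb 8827 and 7505 (0.14). The channel genes Kcnj8 (68 and 312 counts; 2.58) and Abcc9 (113 and 437; 2.33), typical of pericytes, were higher in the extracranial library beyond 4-fold. The contractile genes Acta2 (873 and 384 counts; -0.81) and Myh11 (220 and 40; -2.08), which like Kcnj8 and Abcc9 are named after their values were seen, were higher in the intracranial library, as Notch3 was. The median CPM of the list, 25.1 and 16.3, was higher in the intracranial library, unlike the sum. These medians came from different genes, Acta2 in the intracranial library and Abcc9 in the extracranial one. By gene, 5 of the 7 were higher in the extracranial library beyond counting error (29.2% of all genes) and 2 in the intracranial library (32.2%). The median of the 7 log2 ratios was 0.75.

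Every gene of stratified epithelium (10 of 10) and of glandular epithelium (7 of 7) was higher in the intracranial library beyond 4-fold. The share over all genes was 5.41%. Krt5, a basal keratin, had 25883 and 0 counts, Krt14 had 74653 and 2, and Krt13, a keratin of mucosal surfaces, had 366709 and 5. Of the glandular genes, Muc5b had 83812 and 0 counts, Bpifa1 210 and 0, and Cldn3 83 and 0. Jag1, Jag2 and Notch3 were higher on the same side, and Notch1 was not. The contribution of epithelium to these ratios was not tested. In the extracranial library, where the 10 epithelial genes summed to 3.18 CPM, Jag1 had 233 counts and Jag2 151.

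Other cell types also differed between the pieces, and their part in the ratios of the members was not tested. Genes of these lists named here were chosen after their values were seen. T cell genes summed to 12.9 and 33.7 CPM, with Cd8a (17 and 222 counts) and Cd4 (20 and 172) higher in the extracranial library beyond 4-fold and Cd3d, Cd3e and Cd3g within counting error. B and plasma cell genes summed to 3.28 and 26.2 CPM, of which Cd79b alone gave 1.64 and 22.7, while Cd79a (19 and 15 counts) and Jchain (32 and 40) were within counting error. The lists for neutrophils, Schwann cells and neurons were each split in direction. Neutrophil genes summed to 694.2 and 58.5 CPM through S100a8 (8970 and 9 counts) and S100a9 (14455 and 13), which stratified epithelium can also express, while Csf3r was higher in the extracranial library (692 and 1542), Ly6g had 4 and 1 counts and Mpo 0 in both. Schwann cell genes summed to 60.5 and 106.1 CPM, of which Egr2 alone gave 18.1 and 89.5, while the other 5 were lower in the extracranial library, Sox10 with 43 and 0 counts, and the median was lower there too. Neuronal genes summed to 57.1 and 80.3 CPM, of which Nefl gave 11.4 and 60.3, and their median was lower in the extracranial library. Skeletal muscle genes summed to 42.9 and 10.6 CPM, with Myh4 at 53 and 0 counts.

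**Figure D4:**
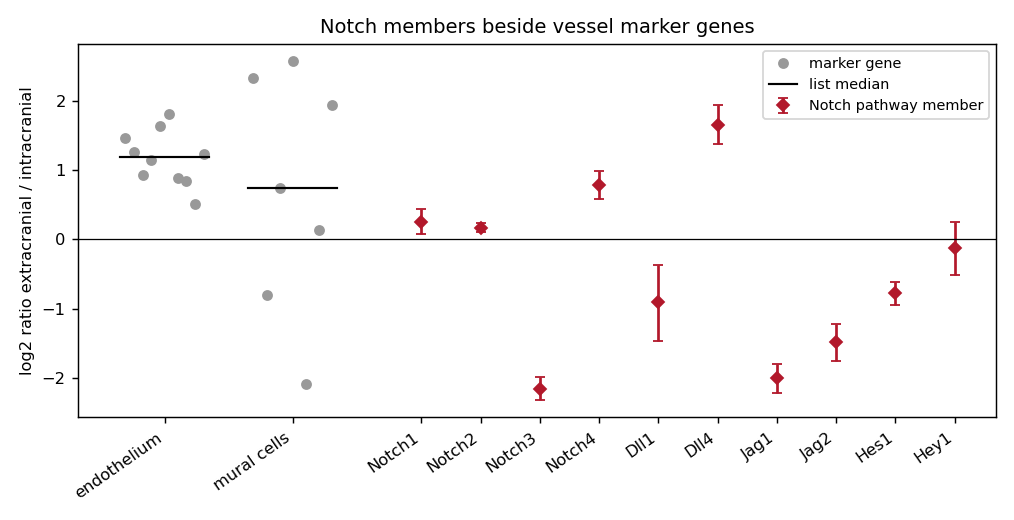
Log2 ratio extracranial over intracranial of endothelial and mural cell marker genes (grey points, bar at the list median) and of the 10 Notch pathway members (red, with exact 95% intervals). Notch4 and Dll4 fall within the range of the endothelial genes, 0.51 to 1.80, and Notch3, at -2.15, lies just below the lowest of the mural cell genes, which range from -2.08 to 2.58.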

How the data were processed

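Fresh-frozen tumor pieces were profiled by bulk RNA-seq, 1 library per location. The deposited table holds raw read counts per Ensembl gene. Per the labels and methods, the authors selected poly(A) RNA, made directional libraries, aligned single reads with STAR (version 2.7.9a) at default parameters to GRCm39 with Ensembl release 104 and counted with featureCounts. The strand setting and the treatment of multiply aligned reads are not given in the sources used here.

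Symbols and summed exon lengths came from GENCODE M21, which is older than the counted annotation (94.0% of 55416 IDs matched). The IDs without a symbol stayed in library sizes and backgrounds. TMM factors from edgeR (version 4.0.16) gave CPM. Without replicates no quasi-likelihood fit was possible, so no p-value is given. Ratios of genes with at least 10 counts were called where the whole exact 95% interval lay beyond 4-fold or 2-fold. Counts of 3 or fewer were set to 3 for medians of log2 ratios and for bounds, whereas summed and median CPM used the counts as they stood. The reads carry no molecular identifiers and may be PCR copies, so intervals and floors cover counting error only. The procedure was tested on simulated counts.

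Members, lists and call rules were chosen with earlier results of these data known. Besides the members, pathway genes past either call rule and the highest per kilobase in each role are named, as are leading or undetected cell type markers; others are marked. Alternatives were DESeq2 (version 1.42.0) size factors, total counts, upper quartile scaling, other count minimums, the ratio alone, a prior count and other lengths.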

Additional observations from a re-analysis of the deposited data

How the results depend on the processing

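No paired analysis was possible because neither location had more than 1 library, and no library could be left out in turn. The other scalings moved every log2 ratio by -0.02 to 0.04, and TMM without epithelial genes, chosen after seeing the data, by -0.0006. Under these scalings each member kept its side of the 2-fold limit and its level stayed inside its counting interval, and with a prior count of 2 each kept its direction. Of the other pathway genes, Numbl was no longer called at 2-fold under upper quartile scaling (log2 ratio -1.10), which left 5. At 4-fold, total counts called 1 member, Notch3, and the ratio alone called 2, since no interval is then required. With 100 or more counts, 1 other pathway gene was called at 4-fold, since Dlk2 has fewer. Over all genes, the ratio alone gave 2542 genes at 4-fold and 6063 at 2-fold.

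Shares depended on the length used. With raw counts, Notch2 took 58.9% and 73.3% of receptors in the intracranial and extracranial libraries and Notch3 28.6% and 7.13%, and of ligands Dll4 took 7.70% and 46.9% and Jag1 29.05% in the extracranial library. Per kilobase of the longest transcript, Notch2 took 52.3% and 67.3%, and in the intracranial library Notch3 took 33.2% and Jag1 55.0%. Under each length Notch2 led the receptors in both libraries, Jag1 led the ligands in the intracranial one and Dll4 in the extracranial one.

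Taking the median CPM in place of the summed CPM of a cell type list reversed the log2 ratio for 4 lists. These were mural cells (-0.62), Schwann cells (-1.55), neurons (-0.38) and rhabdoid tumor genes (0.19). For mural cells the median of the log2 ratios by gene was 0.75, on the side of the sum. The median CPM moved stratified epithelium to -14.0, glandular epithelium to -7.92, T cells to 2.33, B and plasma cells to 0.96 and neutrophils to -5.75. For both epithelial lists the extracranial median was 0.0374 CPM, under the level of 3 counts (0.112 CPM), so their sizes are uncertain. Sums weigh the highest genes most, such as Egr2 and Nefl, and a median CPM can come from different genes in each library. What lies behind the differences of the single genes was not tested.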

Other observations

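Balances of 2 genes within a library need no scaling between libraries. A set of 20 was computed after the values were seen, and these are descriptions with counting intervals. Relative to the endothelial cadherin Cdh5, Dll4 stood at 0.226 per kilobase in the intracranial library and 0.256 in the extracranial library, a 1.14-fold difference with an interval of 0.922 to 1.41. Relative to Pecam1, however, Dll4 was 1.70-fold higher in the extracranial library (1.39 to 2.09). Notch4 relative to Pecam1 was 0.214 and 0.199, a difference of 0.927-fold (0.791 to 1.09), and relative to Cdh5 it was 0.620-fold (0.525 to 0.733). Relative to Kdr, the extracranial balance was 0.492-fold the intracranial one for Notch4 (0.4035 to 0.600) and 0.903-fold for Dll4 (0.712 to 1.15). How Notch4 and Dll4 compared with endothelial genes thus depended on the gene chosen.

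For Notch3, the balance with the mural cell gene Pdgfrb was 4.90-fold higher in the intracranial library (4.35 to 5.53), and that with Rgs5 was 17.1-fold higher (14.9 to 19.6). The balance with the smooth muscle gene Myh11 was 8.49 and 8.10 per kilobase, within counting error of each other (0.954-fold, 0.664 to 1.399), whereas that with Acta2, the other contractile gene, was 2.54-fold higher in the intracranial library (2.14 to 3.003). Heyl, which is often expressed with Notch3 in mural cells, stood at 0.0477 of Notch3 in the intracranial library and 0.504 in the extracranial library, a 10.6-fold difference (7.47 to 15.0).

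Hes1 relative to Rbpj was 0.694 and 0.355 per kilobase, 1.95-fold higher in the intracranial library (1.73 to 2.21), and Hes1 relative to Hey1 was 1.57-fold higher there (1.17 to 2.10). Notch1 relative to Notch2 was the same within counting error, 0.0963 and 0.102.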
